A study of Mus musculus with 2 samples.

Results

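Genes that make, sense, move and export cholesterol were measured in mouse hybridoma cells with and without the bursal peptide BSP-II. The set was given as 29 genes by their roles: 18 for synthesis, 4 for regulation and 7 for uptake, transport, storage and export. Array probes were assigned to them by RefSeq accession, and 28 genes were found, through 46 probes, among 17305 genes with a probe. No probe matched Idi1, an isomerase of isoprenoid synthesis, which was not analysed here. On both arrays all 28 genes were well above background, as were 45 of their 46 probes; the exception was the second probe of Fdft1.

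A hybridoma is a B cell fused to a myeloma cell, which divides without limit and secretes 1 antibody; these cells carried the strain label 1H5F9. BSP-II is a peptide of the bursa of Fabricius, the organ of B cell development in birds. One group received 0 µg/ml and the other 5 µg/ml of BSP-II for 4 h, both in RPMI medium with heat-inactivated fetal bovine serum, and the labels name no other agent. The design mentions 2 independent experiments, each on cells of its own, but the data analysed here are 1 array per dose, both with replicate number 1. No difference given here therefore has a replicate check or a p-value, and "higher" and "lower" describe these 2 arrays.

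Animal cells make cholesterol from acetyl-CoA in the mevalonate pathway, which first builds isoprenoids, joins them into squalene, closes the rings to lanosterol and then trims lanosterol to cholesterol. When sterols in the endoplasmic reticulum run low, SCAP escorts the precursor of SREBP-2 to the Golgi, where it is cut into an active transcription factor for the synthesis genes; INSIG proteins hold SCAP back when sterols are plentiful. Cells also take cholesterol from lipoproteins, which reach the lysosome and leave it through NPC2 and NPC1. Excess is stored as esters by SOAT1 or exported by ABCA1 and ABCG1, whose genes are targets of the oxysterol-activated LXR receptors. Serum supplies lipoprotein cholesterol, so cultured cells have both sources.

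Promoters are shown for 5 members that have 1 annotated start each: Hmgcs1, the member with a match to the sterol regulatory element; Hsd17b7 and Insig1, the members with the lowest difference of BSP-II minus untreated; Mvk, with the most CCAAT boxes of the set; and Soat1, from the storage and export side. The sequences are the 250 bases before the start, read 5′ to 3′ on the gene's strand, from RefSeq on GRCm38.p6. They lie at chr13:119690101-119690350 (plus strand), chr1:169969206-169969455 (minus), chr5:28071162-28071411 (plus), chr5:114444019-114444268 (plus) and chr1:156474329-156474578 (minus). Capitals mark TCACNCCAC, the core of the sterol regulatory element; CCAAT, the box bound by NF-Y, a usual partner of SREBP; and CACGTG, an E-box. Each was searched on both strands, so that CCAAT on the other strand appears as ATTGG.
Hmgcs1: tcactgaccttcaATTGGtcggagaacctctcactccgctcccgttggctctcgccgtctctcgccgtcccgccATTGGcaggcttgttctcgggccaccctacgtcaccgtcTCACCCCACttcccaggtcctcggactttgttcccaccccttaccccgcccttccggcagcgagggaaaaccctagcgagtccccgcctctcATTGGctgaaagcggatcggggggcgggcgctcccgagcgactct
Hsd17b7: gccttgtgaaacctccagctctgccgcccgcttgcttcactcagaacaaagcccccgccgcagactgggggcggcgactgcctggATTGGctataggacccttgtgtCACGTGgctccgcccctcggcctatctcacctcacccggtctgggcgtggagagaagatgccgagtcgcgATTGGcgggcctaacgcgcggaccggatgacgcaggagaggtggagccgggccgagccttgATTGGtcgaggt
Insig1: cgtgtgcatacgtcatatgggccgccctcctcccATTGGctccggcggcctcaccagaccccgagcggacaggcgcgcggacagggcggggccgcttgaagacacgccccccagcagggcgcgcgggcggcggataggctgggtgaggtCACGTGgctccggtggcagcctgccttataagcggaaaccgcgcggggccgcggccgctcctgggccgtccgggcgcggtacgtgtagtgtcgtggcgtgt
Mvk: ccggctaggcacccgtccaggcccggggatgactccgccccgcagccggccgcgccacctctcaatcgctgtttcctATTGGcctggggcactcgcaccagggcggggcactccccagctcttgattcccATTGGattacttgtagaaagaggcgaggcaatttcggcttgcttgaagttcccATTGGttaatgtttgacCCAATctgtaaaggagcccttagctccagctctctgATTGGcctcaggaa
Soat1: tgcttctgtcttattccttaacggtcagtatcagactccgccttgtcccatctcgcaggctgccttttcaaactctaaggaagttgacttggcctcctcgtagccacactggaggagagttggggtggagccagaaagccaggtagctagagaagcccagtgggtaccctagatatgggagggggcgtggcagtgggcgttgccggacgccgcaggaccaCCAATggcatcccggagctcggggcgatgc

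Promoter sequence was at hand for 23 of the 29 genes, Idi1 included, and where a gene had several starts a match at any one was counted. CCAAT stood in the 250 bases of 19 of the 23 (82.6%), of which 14 were among the 15 synthesis genes (93.3%); it stood in 40.3% of the 10354 genes measured on both arrays that had a promoter sequence. GGGCGG, a GC box, was in 20 of 23 (87%) against 58.2%. CACGTG was in 6 of 23 (26.1%), namely Hsd17b7, Sc5d, Dhcr7, Insig1, Scap and Abca1, against 9.37%. TCACNCCAC was in Hmgcs1 alone of the 23, 137 to 129 bases before its start, against 129 of the 10354 measured genes. AGGTCA, a building block of many nuclear receptor sites, was in 3 of 23 (13%) against 13.5%. The motifs as spelled do not contain one another, and a match is a description of the sequence, not a bound site. Hsd17b7 and Insig1 shared an unbroken run of 14 bases around the E-box, gtCACGTGgctccg, which begins 145 bases before the start of Hsd17b7 and 103 before that of Insig1. In all, 4 of 27025 genes held that run in this window.

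Differences between the arrays were small for every member. Each signal was divided by the 75th percentile of its array, so that a scaled signal of 1 equals that percentile. The log2 difference of BSP-II minus untreated is given relative to the median of all 12852 genes measured on both arrays, which itself was −0.03, so that 0 is the typical gene. The ± beside a value is Agilent's own error of the spots, carried to the difference, and leaves out culture, RNA and hybridisation. It was 0.20 to 0.21 for the members by their brightest probes, with a median of 0.20 over all genes. Being so nearly the same for each member, a limit of 1 or 2 spot errors acts much as a fixed fold limit. The differences of the brighter genes (level no lower than the median gene's) had an SD of 0.18, less than that error. RNA was taken from whole cultures, in which fewer cells with a transcript and less of it per cell cannot be told apart.

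The 28 members lay between −0.42 and 0.34, and their median was 0.08. Above the all-gene median were 17 of 28 (60.7%), where 50% of all genes lie by construction and 56.4% of the brighter genes (level no lower than the median gene's). Of the members, 20 of 28 were brighter genes. No member was 1.5-fold higher or lower, where 1.39% of all genes were 1.5-fold higher and 4.35% 1.5-fold lower. At least 25% higher was 1 of 28, Dhcr7 (all genes, 6.85%), and at least 20% lower were 2 of 28, Hsd17b7 and Insig1 (all genes, 13%); both limits are 0.32 on the log2 scale. Beyond 2 times the spot error was 1 of 28, Hsd17b7, where 10.4% of all genes were. The shares past these limits are near or below those of all genes, but brighter genes passed them less often than all genes. Of the 6426 brighter genes, 221 were at least 25% higher and 225 at least 20% lower, and 3.78% were beyond 2 spot errors. Between the lower and upper quartiles of all genes, −0.16 and 0.13, lay 17 of the 28 members, where 50% of all genes lie by construction.

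**Figure D1:**
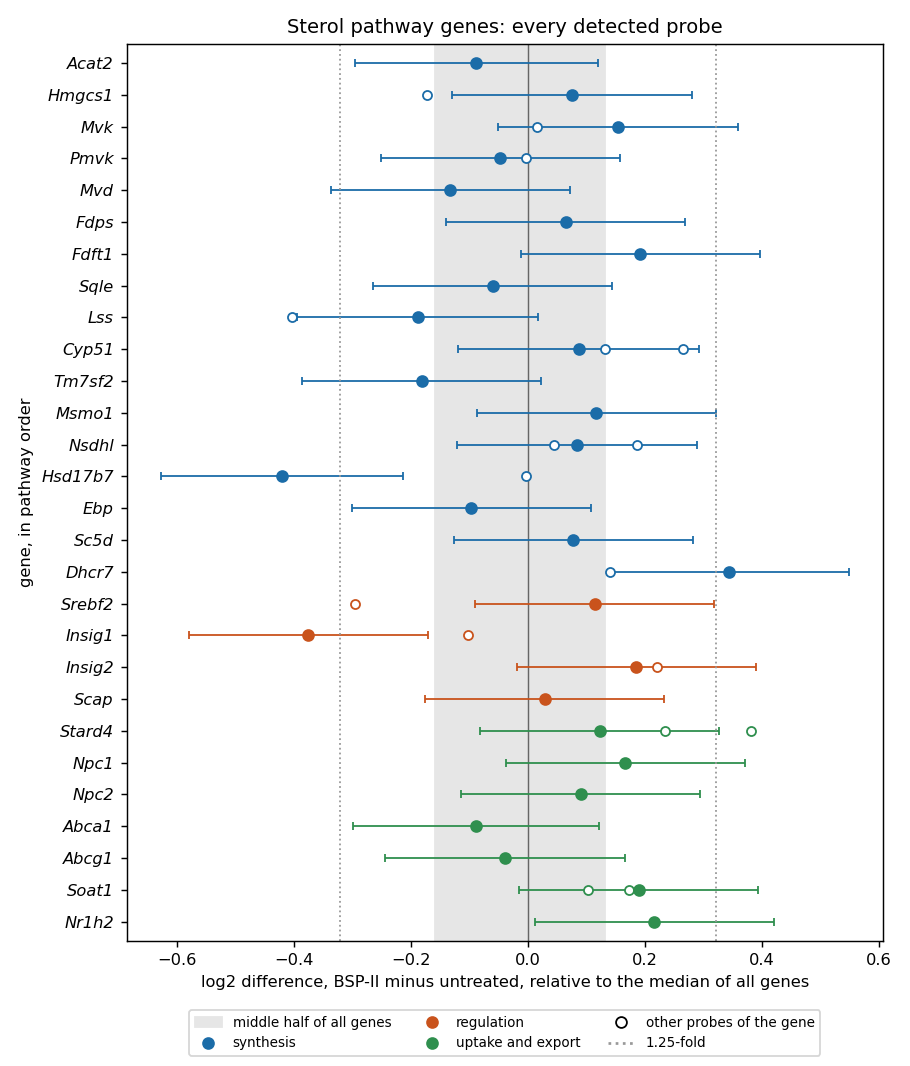
Relative log2 difference (x axis, BSP-II minus untreated, 0 = median of all genes) of each member in pathway order (y axis); filled points are the brightest probe with its spot error, open points the other detected probes, the grey band the quartiles of all genes and the dotted lines 25% higher and 20% lower. Hsd17b7 (−0.42), Insig1 (−0.38) and Dhcr7 (0.34) are the only filled points past the dotted lines.

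The early steps, from acetyl-CoA to farnesyl diphosphate, went both ways by little: 3 of the 6 measured genes lay above the all-gene median and 3 below, with a group median of 0.01. Hmgcs1, which makes HMG-CoA and whose promoter carries the sterol regulatory element shown above, had scaled signals of 1.62 on the untreated and 1.68 on the BSP-II array, a relative log2 difference of 0.08 ± 0.20. Its second probe, at processed signals of only 14.2 and 14.3, gave −0.17 ± 0.35. The probes of this gene thus lay on opposite sides of 0, both within their errors.

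Acat2, the cytosolic thiolase that begins the pathway, had processed signals of 134 untreated and 142 with BSP-II, before scaling (−0.09 after it). Mvk, mevalonate kinase, was at scaled signals of 0.608 and 0.663 (0.15), with 0.02 by its second probe. Pmvk, the next kinase, was at 3.62 and 3.44 (−0.05), with −0.0040 by its second probe. None of these differences reached 1 spot error. Mvd, the decarboxylase after the 2 kinases, was at 1.62 and 1.45 (−0.13). Fdps, which builds farnesyl diphosphate, was at 2.32 and 2.38 (0.06).

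The sterol steps, from squalene on, were the more spread: 6 of 11 genes lay above the all-gene median, their median was 0.08, and they held the members with the highest and the lowest difference. Hsd17b7, a ketoreductase that acts in the removal of the methyl groups of lanosterol, had the lowest difference of all. Its scaled signal was 0.452 untreated and 0.331 with BSP-II, a relative log2 difference of −0.42 ± 0.21 (1.34-fold lower), at percentile 8.9 of all genes. Its second probe gave 0.344 and 0.337, a difference of −0.0030 ± 0.21. The lower value of Hsd17b7 thus rests on 1 of 2 probes with like signals.

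Lss, the cyclase that closes the sterol rings, was lower by both of its probes. The brighter was at 0.606 and 0.522 (−0.19 ± 0.21) and the dimmer at 0.391 and 0.290 (−0.40 ± 0.21). Tm7sf2, a sterol reductase, was at 1.49 and 1.29 (−0.18), by 1 probe. Its promoter, like that of Lss, holds a CCAAT box.

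Dhcr7, which catalyses a last reduction to cholesterol, had the highest difference of the members. Its scaled signal was 6.53 untreated and 8.13 with BSP-II, a relative log2 difference of 0.34 ± 0.20 (1.27-fold), at percentile 94.1 of all genes. That spot lay close to others (2 or more, within 3 rows and columns) that differed 2-fold or more between the arrays in a common direction; the part of the position in the value was not tested. The second probe of Dhcr7, away from such spots, was at 0.658 and 0.713, a difference of 0.14 ± 0.21 in the same direction.

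The other sterol genes lay within 1 spot error of the typical gene by their brightest probes. Fdft1, squalene synthase, was at 1.85 and 2.07 (0.19), and Sqle, squalene epoxidase, at 6.57 and 6.18 (−0.06). Cyp51, the lanosterol demethylase, was on the higher side by each of its 3 probes, with 0.09, 0.26 and 0.13 from the brightest to the dimmest. Msmo1, the methylsterol oxidase, was at 2.38 and 2.53 (0.12). Nsdhl, which works beside it, was on the higher side by all 3 of its probes, at 0.08, 0.19 and 0.05. Ebp, the sterol isomerase, was at 27.8 and 25.6 (−0.10), and Sc5d, the desaturase before Dhcr7, at 4.38 and 4.53 (0.08). Of the 17 synthesis genes, 9 lay above and 8 below the all-gene median.

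Among the regulators, the paralogues Insig1 and Insig2 lay on opposite sides. Insig1, a target of SREBP as well as its brake, had scaled signals of 2.93 untreated and 2.22 with BSP-II, a difference of −0.38 ± 0.20 (1.30-fold lower), at percentile 10.6. Its second probe, beside spots that differed 2-fold, gave 0.601 and 0.550 (−0.10 ± 0.21). Insig2, which does the same work but is not known as an SREBP target, was at 3.92 and 4.37 (0.18 ± 0.20), and its second probe at 0.287 and 0.328 (0.22 ± 0.21). Both probes of each gene thus had the direction of that gene.

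Over the 4 pairings of their probes, Insig2 minus Insig1 ranged from 0.29 to 0.60 on the log2 scale, with spot errors of 0.29. In 1 of the 4 pairings the gap was more than 2 spot errors. Srebf2, which encodes SREBP-2, was at 3.50 and 3.72 (0.11 ± 0.20). Its second probe, dim at processed signals of 19.9 and 18.3, gave −0.29 ± 0.30. Scap, the escort of SREBP, was at 21.8 on both arrays (0.03).

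The genes of uptake, transport, storage and export had a median of 0.12, with 5 of 7 above the all-gene median and none past 25% higher or 20% lower. The 2 below it were the exporters. Abca1, which loads cholesterol onto apolipoprotein A-I, was at 0.298 untreated and 0.276 with BSP-II (−0.09 ± 0.21). Abcg1, which exports it to lipoprotein particles, was at 0.755 and 0.721 (−0.04 ± 0.20). Nr1h2, the LXR-beta receptor, was by contrast on the higher side at 4.89 and 5.57 (0.22 ± 0.20), at percentile 85.5 and just past 1 spot error.

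The carriers inside the cell were all on the higher side. Npc1, the lysosomal membrane exporter of cholesterol, was at 1.29 and 1.42 (0.17), and Npc2, its soluble partner, at 8.99 and 9.39 (0.09). Stard4, a cytosolic sterol carrier, was at 1.37 and 1.46 by its brightest probe (0.12 ± 0.20), and its 2 dimmer probes gave 0.38 ± 0.21 and 0.23 ± 0.23. Soat1, which esterifies cholesterol for storage, was at 5.20 and 5.82 (0.19), with 0.10 and 0.17 by its other probes, the former beside spots that differed 2-fold. All 9 probes of these genes and of Nr1h2 lay above the all-gene median, and both probes of the exporters below it, 11 probes in all.

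**Figure D2:**
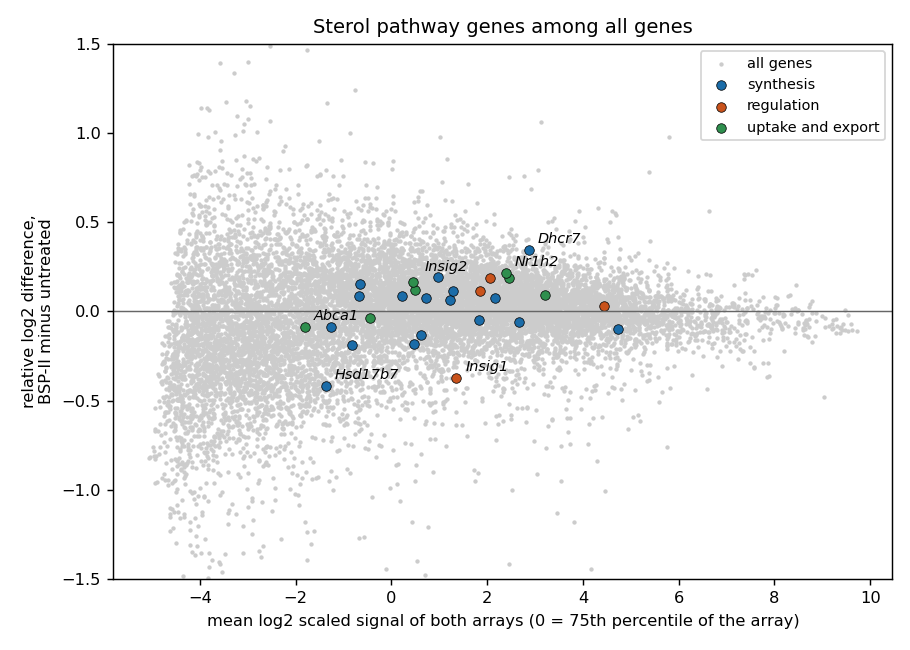
Relative log2 difference (y axis, BSP-II minus untreated) against the mean log2 scaled signal of both arrays (x axis) for all 12852 genes (grey) and the 28 members by role (colours); 39 genes lie beyond the y axis limits of 1.5. The members lie inside the cloud of genes of like level, with Hsd17b7 (−0.42) and Insig1 (−0.38) toward its lower and Dhcr7 (0.34) toward its upper edge.

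Synthesis was compared with uptake and export. The synthesis genes had a median of 0.06 and the uptake and export genes one of 0.12, a gap of −0.06 against a spot error of 0.09 for the gap of the means. The latter group also holds genes of transport inside the cell and storage, and the receptor gene Nr1h2. Its 2 exporters, Abca1 (−0.09) and Abcg1 (−0.04), lay below the all-gene median, so the gap does not describe export. With means in place of medians the gap was −0.09. The gap of the medians was thus smaller than 1 spot error and that of the means about as large. That error takes the genes' spot errors as independent. It leaves out differences between cultures and the spread over genes, an SD of 0.18 for synthesis and 0.12 for uptake and export. The gap kept its sign, synthesis being the lower, under each of the other processings tried, from −0.19 to −0.05. Median scaling, the authors' value table and leaving dim probes unfiltered move all members alike, so they could not change the gap. Counted by probes, 15 of 27 synthesis probes and 9 of 11 uptake and export probes lay above the all-gene median, with medians of 0.04 and 0.17. Probes of 1 gene are not independent of each other.

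**Figure D3:**
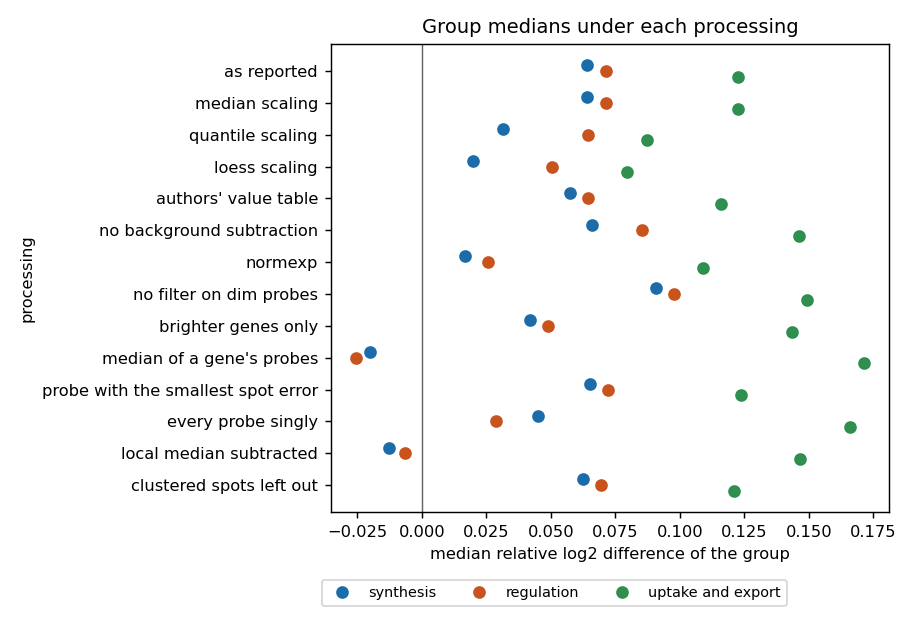
Median relative log2 difference (x axis) of the synthesis, regulation and uptake and export genes (colours) under each way of processing the arrays (y axis). The uptake and export median is to the right of the synthesis median in each row, and the synthesis median runs from −0.02 to 0.09. The uptake and export group also holds transport, storage and receptor genes, and its exporters lay below the all-gene median as reported.

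Several probes tell how far a value holds within 1 pair of arrays. Of the 28 members, 13 had more than 1 probe well above background, and in 11 of these (84.6%) all probes lay on 1 side of the all-gene median. Among all 4029 genes with several such probes the share was 59.7%. The 2 exceptions were Hmgcs1 and Srebf2, whose second probes were dim. Among the 11, Hsd17b7 (−0.0030), Pmvk (−0.0040) and Mvk (0.02) had a probe close to 0, so that lying on 1 side does not mean like values. The probes of a member spanned a median of 0.20 on the log2 scale, and at most 0.42, in Hsd17b7; the median over all genes was 0.16.

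Other genes of the pathway were taken as 35 in 3 groups, of which 30 were measured on both arrays. Their median was 0.06, with 17 of 30 above the all-gene median. At least 25% higher were 2 (all genes, 6.85%) and at least 20% lower was 1 (all genes, 13%). The branches of isoprenoid use had a median of −0.03 (3 of 7 above), sterol sensing 0.08 (6 of 8 above) and the wider set of transport, esters and oxysterols 0.02 (8 of 15 above). At least 1.5-fold different was 1 of the 30, where 1.39% of all genes were 1.5-fold higher and 4.35% 1.5-fold lower. Cyp46a1, which turns cholesterol into 24-hydroxycholesterol, had scaled signals of 0.939 untreated and 0.540 with BSP-II (−0.77 ± 0.20, 1.71-fold lower), by 1 probe. Soat2, the second esterifying enzyme, was at 0.112 and 0.164 (0.58 ± 0.23), at dim processed signals of 34.5 and 58.3.

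Of the rest of the 35, Vldlr, Ch25h and Cyp7b1 were not well above background on either array by their brightest probe, and no probe matched Pdss2. Pggt1b was well above background on the BSP-II array alone, at processed signals of 13.7 and 16.8. After scaling it was 1.06-fold higher there, which is a ratio of observed signals near background and not a bound.

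Both arrays carried 45018 spots, no spot of a member was saturated or marked as an outlier, and the local background had medians of 46 (untreated) and 37 (BSP-II). Markers of plasma cells and hybridomas were well above background on both arrays in 10 of 10 genes; by each gene's brightest probe their scaled signals summed to 836 untreated and 769 with BSP-II, and 8 of the 10 lay below the all-gene median (relative log2 differences of −0.33 to 0.12). The largest part of these sums was Jchain, at 489 and 436. Cd79a was dim, at processed signals of 23.7 and 22.3 beside spots that differed 2-fold, below the T cell marker Cd3e (209 and 168). The scaled sums were 1.24 and 0.923 for T cell markers (3 of 4 genes above background), 0.258 and 0.408 for macrophage markers (2 of 3) and 0.176 and 0.156 for fibroblast markers (2 of 4). The macrophage sums hold Csf1r, whose 2 brighter probes went opposite ways (0.93 and −0.73). The part of other cells in the small differences was not tested.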

How the data were processed

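RNA of hybridoma cells was labelled with Cy3 and read on single-colour Agilent arrays, 1 per dose. The deposited intensity values, per the file headers, are median brightness of spot and local background and a processed signal with its error, background-subtracted and detrended by the scanner software, which the submitters' processing notes name as Agilent Feature Extraction 10.5.1.1. Deposited flags (unit other) mark saturated, outlier and well-above-background spots, per the file headers. The deposited log2 value table (medians 2.88 and 2.99) lists 23296 probes. It equals the log2 processed signal plus a constant, −4.85 and −4.94, within 0.001 for 99.8% of probes, and the choice of centring is not stated in the sources used here.

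Probes were named by unversioned accession in RefSeq on GRCm38.p6 (25097 of 41174 matched), used for names because the grid was built on mm9. Outlier spots (189) were left out. Signals were scaled to the 75th percentile (309 and 356); a gene's brightest probe represented it. All members are named; other genes were named if 1.5-fold different or among the 3 largest differences, of which 1 is not reported here. Members and lists were chosen with earlier results of these data known. Alternatives were other scalings, background corrections (normexp, offset 50), probe filters, probe rules and local medians; leaving out clustered spots was added after seeing the data. Steps were tested on simulated data. Python 3.11.15, numpy 2.4.6, pandas 2.3.3, statsmodels 0.14.6, R 4.3.3 and limma 3.58.1 were used. The number of arrays limits the precision.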

Additional observations from a re-analysis of the deposited data

How the results depend on the processing

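No paired analysis was possible because each group is 1 array, so that only replicate number 1 is shared. Of 328 single-gene values over 12 alternatives, 325 moved by less than the spot error and none of those at least 25% higher or 20% lower changed sign. As reported, only 4 of the 28 members were themselves beyond 1 spot error (all genes, 33.8%), so staying within it is a weak check. On 1 side of the all-gene median under each of these alternatives were 22 of 28 genes; the others were Abcg1, Ebp, Hmgcs1, Scap, Sqle and Srebf2. Dhcr7 was at 0.14 with clustered spots left out, and Hsd17b7 at −0.21 by the median of its probes and −0.19 with normexp. The member median was 0.033 with local medians subtracted, 0.035 with loess and 0.034 with normexp, against 0.076 as reported. The synthesis median turned to −0.013 with local medians subtracted and −0.020 by the median of each gene's probes, which took the gap to uptake and export to −0.16 and −0.19. No member was 25% higher (0) among brighter genes, without clustered spots, with local medians, loess or quantile scaling, by the median of probes, without background subtraction or with normexp; probes taken singly gave 2, with 28 of 45 above the all-gene median. In the settings with 0, the share of all genes 25% higher ran from 2.47% (normexp) to 7.8% (loess). Of all probes taken singly it was 7.27%. At least 20% lower were 1 among brighter genes (all brighter genes, 4.05%) and 1 with normexp (all genes, 3.87%). By the median of probes (all genes, 12.8%) and without background subtraction (all genes, 6.62%) the count was 0. Hsd17b7 is not among the brighter genes, so it could not be counted there. Scaling to the median changes nothing here by construction. The authors' value table, no filter on dim probes and the probe with the smallest spot error moved all members by a constant, so they check little. Brighter genes only moved the 20 members it kept by a constant and dropped the others, which took the gap between synthesis and uptake and export to −0.10. The authors' value table moved the all-gene median from −0.03 to 0.10 and kept all 28 members.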

Other observations

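The 3 members past 25% higher or 20% lower, Hsd17b7, Insig1 and Dhcr7, were all among the 6 members with CACGTG in the 250 bases before a start, a grouping noticed after the values were seen and not tested. They did not share a direction: Hsd17b7 was at −0.42, Insig1 at −0.38 and Dhcr7 at 0.34. By their second probes these genes were at −0.0030, −0.10 and 0.14, inside the limits. Of all genes, 6.85% were at least 25% higher and 13% at least 20% lower, and the shares among all genes with CACGTG are not given here. The other 3, Sc5d (0.08), Scap (0.03) and Abca1 (−0.09), lay within 1 spot error of the typical gene. In Dhcr7 the match is at 1 of 3 annotated starts, 164 to 159 bases before it, and the CCAAT boxes are at another.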
